A study of Arabidopsis thaliana with 6 samples.

Results

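MCCA (locus AT1G03090, chromosome 1) and IVD (locus AT3G45300, chromosome 3) are nuclear genes for mitochondrial enzymes of leucine breakdown in Arabidopsis. Their probe sets were taken by the gene that the array annotation assigns. The pair and the lists of related genes were chosen with earlier results of these data known. The annotation gives each of them 1 probe set, so 2 of the 22746 tested probe sets are described here. The arrays carry RNA from the aerial part of msh1 albino mutants (3 arrays) and of wild-type plants (3 arrays). Plants of both groups were 4 weeks old and had grown on MS medium supplied with 1.5% sucrose, under 12 h of light and 12 h of dark at 24 °C. The MSH1 protein, a MutS homolog of mitochondria and plastids, is known to keep organelle genomes from recombining, and its transcript was not analysed here. The labels name neither the msh1 allele nor the accession, and every msh1 array came from albino plants, so genotype and albino state cannot be told apart.

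Leucine is broken down in plant mitochondria. After transamination and oxidative decarboxylation, isovaleryl-CoA dehydrogenase (IVD) oxidises isovaleryl-CoA and hands its electrons to the electron transfer flavoprotein (ETF), from which ETF:ubiquinone oxidoreductase (ETFQO) passes them to the respiratory chain. Methylcrotonyl-CoA carboxylase then fixes bicarbonate onto the product with a biotin cofactor. Its biotin-carrying alpha subunit is MCCA and its carboxyltransferase beta subunit is MCCB. The route is known to be induced in the dark and under sugar shortage, when amino acids serve as respiratory fuel.

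Transcripts of both genes had higher values in every msh1 albino array than in any wild-type array, but neither difference passed the test adjusted over all probe sets. MCCA was 1.47-fold higher in the albino plants and IVD 1.34-fold higher. Neither reached 2-fold at the upper end of its 95% interval. Whether they pass depended on how the arrays were scaled, as given further on.

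MCCA had log2 RMA values of 11.12, 11.28 and 11.00 in msh1 albino replicates 1 to 3, against 10.24, 10.67 and 10.82 in wild-type replicates 1 to 3. RMA values are background-corrected, normalised probe-set summaries on the log2 scale. The lowest albino value lay 0.18 above the highest wild-type value, so the groups did not overlap. The means were 11.13 ± 0.14 in msh1 albino and 10.58 ± 0.30 in wild type (SD, n = 3 each). The difference was 0.55 ± 0.16 (log2 ± SE), with a 95% interval of 0.18 to 0.93, or 1.14-fold to 1.90-fold. In limma's test its adjusted p was 0.0662 (unadjusted p = 0.00890), above the threshold of 0.05. A two-sided exact permutation test over the arrays gave p = 0.1, the smallest that 3 against 3 arrays allow.

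IVD had values of 10.61, 10.79 and 10.53 in msh1 albino replicates 1 to 3, against 10.01, 10.16 and 10.47 in wild-type replicates 1 to 3. Here the groups were closer, with 0.06 between the lowest albino and the highest wild-type value. The means were 10.64 ± 0.14 in msh1 albino and 10.21 ± 0.23 in wild type (SD, n = 3 each). The difference was 0.43 ± 0.14 (log2 ± SE), with a 95% interval of 0.10 to 0.75, or 1.08-fold to 1.68-fold. In limma's test the adjusted p was 0.0954 (unadjusted p = 0.0158), and the two-sided exact permutation p was again 0.1.

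**Figure D1:**
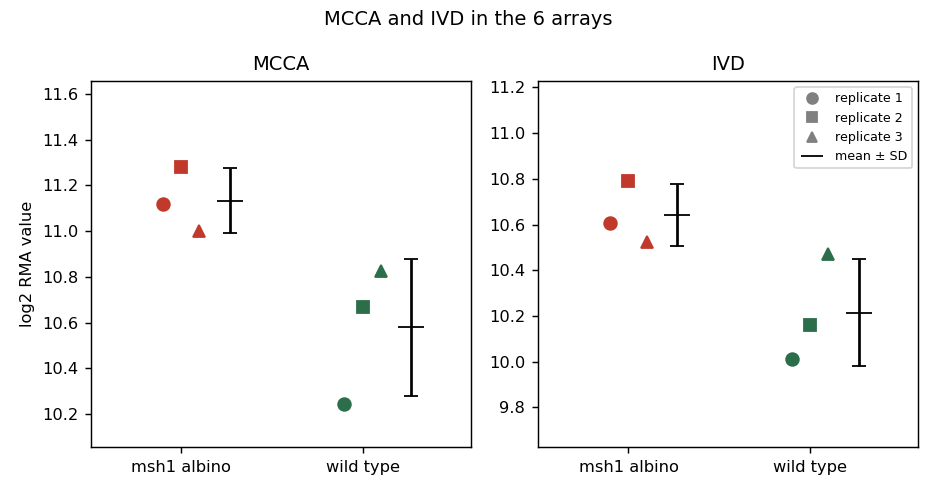
Log2 RMA values of MCCA and IVD in each of the 3 msh1 albino and 3 wild-type arrays, with marker shapes for the replicate number, a bar for the mean ± SD of the group, and vertical axes of equal length. For both genes every albino point lies above every wild-type point, with a gap of 0.18 for MCCA and 0.06 for IVD.

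Read against all probe sets, 0 of the 2 genes passed where 11.2% of the 22746 did, 3.75% as higher and 7.44% as lower in msh1 albino. Of all calls 66.5% were lower with the deposited scaling, and 19.5% to 52.2% were under 5 other scalings. At an unadjusted p under 0.05 both passed as higher, against 8.68% of all probe sets. Groups lay apart with albino higher for both genes and for 10.1% of all probe sets. A difference at least as high as that of MCCA was found in 4.81% of probe sets and at least as high as that of IVD in 6.59%. The median difference of all tested probe sets was -0.04. Both genes are among the 2275 probe sets with the highest mean signal, which also depends on the probes and is no measure of transcript abundance. Of those 2275, 7.60% had groups apart with albino higher, and 4.26% and 6.33% had differences at least as high as those of MCCA and IVD.

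MCCA and IVD put the 6 arrays in the same order. From high to low it ran through msh1 albino replicates 2, 1 and 3 and then wild-type replicates 3, 2 and 1. That order was shared by 103 tested probe sets (0.453%) and by no other of the 13 measured genes on the lists of branched-chain amino acid breakdown. Across the 6 arrays, which share their group means, Pearson's r between the 2 genes was 0.970. The wild-type arrays were spread more widely than the albino arrays, with a range of 0.28 in msh1 albino against 0.58 in wild type for MCCA, and of 0.26 in msh1 albino against 0.46 in wild type for IVD. Wild-type replicate 1 was the lowest array for both genes. Leaving that array out gave differences of 0.39 for MCCA and 0.32 for IVD, and leaving out wild-type replicate 3, the highest of its group, gave 0.68 and 0.55.

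Within an array, MCCA minus IVD was 0.51, 0.49 and 0.48 in msh1 albino replicates 1 to 3, against 0.23, 0.51 and 0.35 in wild-type replicates 1 to 3. The groups overlapped. The mean was higher in msh1 albino by 0.13 (two-sided exact permutation p = 0.3, adjusted p = 0.50 over 5 pairs of transcripts), so a larger difference of MCCA than of IVD was not resolved. It was 0.06 with wild-type replicate 1 left out and 0.20 with wild-type replicate 2 left out.

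The partner subunit of MCCA had values that overlapped between groups. MCCB stood at 9.72, 9.82 and 9.42 in msh1 albino replicates 1 to 3 and at 9.47, 9.48 and 9.82 in wild-type replicates 1 to 3. Its difference was 0.06 ± 0.15 (log2 ± SE, 95% interval -0.28 to 0.40, limma adjusted p = 0.855). That interval reaches 1.32-fold higher and overlaps that of MCCA. MCCB differed by 0.30 with the arrays aligned on reference genes and by 0.14 to 0.19 under the other 3 scalings that took MCCA past the threshold, and it did not pass in any of them. MCCA minus MCCB was 1.39, 1.46 and 1.59 in msh1 albino replicates 1 to 3, against 0.77, 1.19 and 1.00 in wild-type replicates 1 to 3. These groups did not overlap, and the mean was higher in msh1 albino by 0.49 (two-sided exact permutation p = 0.1, the smallest possible here; adjusted p = 0.25 over the 5 pairs). All pairs other than MCCA with IVD were chosen after the values had been seen.

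Transcripts of the 3 proteins that carry electrons on from IVD had differences of both signs, and none passed. ETFQO had values of 8.68, 9.01 and 8.98 in msh1 albino replicates 1 to 3, against 7.99, 8.52 and 8.70 in wild-type replicates 1 to 3. Albino replicate 1 lay below wild-type replicate 3, so the groups overlapped. The difference was 0.49 ± 0.19 (limma adjusted p = 0.153), and it passed with the arrays aligned on reference genes (0.73, adjusted p = 0.0210). That alignment moved the median of all probe sets from -0.04 to 0.20. With wild-type replicate 1 left out the difference of ETFQO was 0.28 (limma adjusted p = 0.288). ETFALPHA, the alpha subunit of ETF, had lower values in every albino array, with 7.42, 7.42 and 7.32 in msh1 albino against 7.70, 7.59 and 7.68 in wild type. Its difference of -0.27 ± 0.09 did not pass (limma adjusted p = 0.0959), and it was -0.028 on reference genes. ETFBETA, the beta subunit, differed by 0.20 ± 0.16 with overlapping groups (limma adjusted p = 0.527). It was 0.038 with msh1 albino replicate 2 left out, 0.32 with msh1 albino replicate 3 left out and 0.11 with wild-type replicate 2 left out.

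Within arrays, IVD minus ETFALPHA was 3.19, 3.37 and 3.20 in msh1 albino replicates 1 to 3, against 2.31, 2.57 and 2.79 in wild-type replicates 1 to 3. The mean was higher in msh1 albino by 0.70 with no overlap (two-sided exact permutation p = 0.1, adjusted p = 0.25 over the 5 pairs). For IVD minus ETFBETA the mean was higher in msh1 albino by 0.23 (exact permutation p = 0.4). For IVD minus ETFQO it differed by -0.06 (exact permutation p = 0.8), and in both cases the groups overlapped. D2HGDH, D-2-hydroxyglutarate dehydrogenase, which feeds the same flavoprotein, differed by -0.21 ± 0.13 (limma adjusted p = 0.376).

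**Figure D2:**
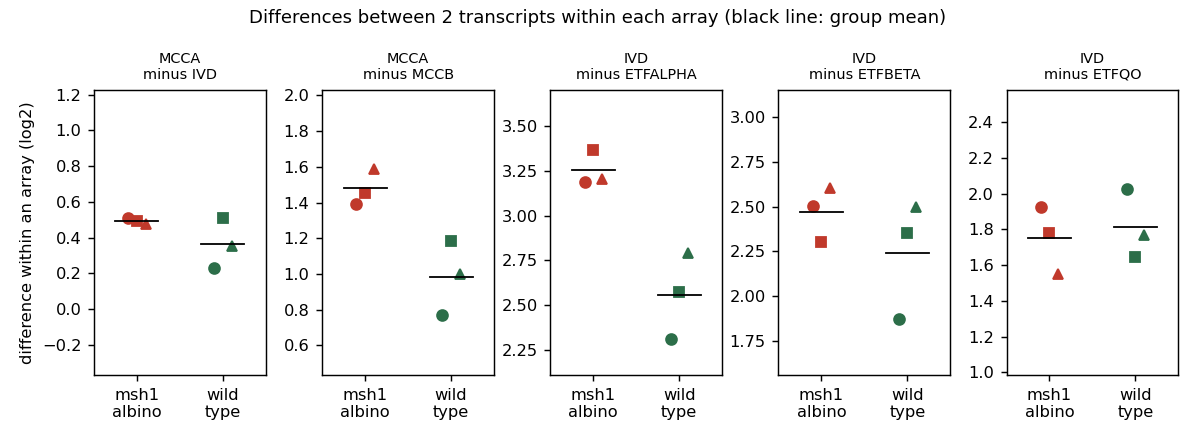
Difference between 2 transcripts within each array (log2) in 3 msh1 albino and 3 wild-type arrays, with marker shapes for the replicate number, a black line for the group mean, and panels of equal height. MCCA minus MCCB and IVD minus ETFALPHA have albino arrays above all wild-type arrays, and the other 3 pairs overlap.

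On the list of the leucine breakdown route 6 of 14 genes were measured, meaning that the annotation gave them a probe set of their own. None of the 6 passed, and 3 had values above and 3 below 0, with a median of -0.05 beside the -0.04 of all probe sets. With alignment on reference genes 5 were above 0 and the median was 0.20, as was that of all probe sets. At an unadjusted p under 0.05 by limma 3 passed, MCCA and IVD as higher and AT5G09300 as lower, beside 25.7% of all probe sets in either direction and 17.0% as lower. AT5G09300 had the lowest difference on the route, -0.49 ± 0.19 (limma adjusted p = 0.150), with overlapping groups. That difference was -0.31 with wild-type replicate 2 left out and -0.25 on reference genes. AT2G26800 differed by -0.22 ± 0.10 and AT4G16800 by -0.15 ± 0.10 (limma adjusted p = 0.234 and 0.409). The annotation gives these 3 loci no name, and on the list AT5G09300 stands as BCKDH-E1A2, a subunit of branched-chain keto acid dehydrogenase. Other genes of the route, such as the aminotransferases BCAT-1 and BCAT-2 and the dark-induced keto acid dehydrogenase subunits DIN4 and BCE2, were not analysed here.

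The list for electron transfer, with 4 of 4 genes measured, had a median of -0.01 and none passed (2 of 4 at an unadjusted p under 0.05 by limma, beside 25.7% of all probe sets). On the valine and isoleucine branch 3 of 5 genes were measured, none passed, and the median was 0.12 (2 of 3 at an unadjusted p under 0.05, beside the same 25.7%). ALDH6B2, methylmalonate-semialdehyde dehydrogenase, differed by 0.12 ± 0.17 (limma adjusted p = 0.741). Of the other measured loci of that branch, AT4G31810 differed by 0.36 ± 0.15 and AT4G20930 by -0.24 ± 0.10 (limma adjusted p = 0.189 and 0.182). AT4G31810 passed with alignment on reference genes (limma adjusted p = 0.0325), where the median of all probe sets was 0.20. It also passed with msh1 albino replicate 3 left out (0.0414). On the 3 lists together, MCCA and IVD were the genes whose groups lay apart with albino higher, as in 10.1% of all probe sets. ETFALPHA and AT4G20930 lay apart with albino lower, as did 19.8% of all probe sets.

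**Figure D3:**
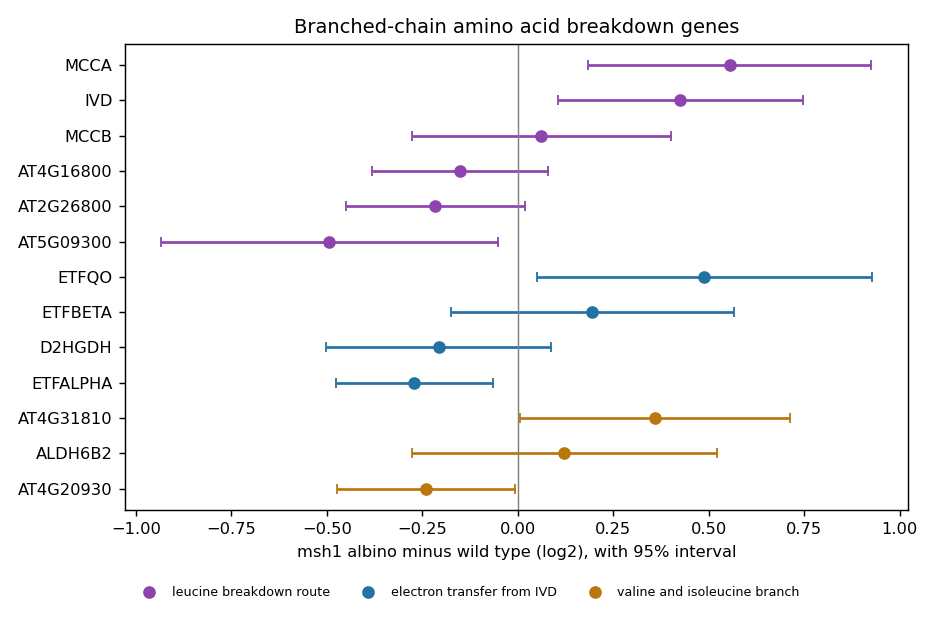
Difference of each of 13 measured genes of branched-chain amino acid breakdown, msh1 albino minus wild type (log2), as a point with its 95% interval, coloured by list. MCCA at 0.55, ETFQO at 0.49 and IVD at 0.43 have the highest values and AT5G09300 at -0.49 the lowest, and the intervals are not adjusted for the number of genes tested.

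Of 16 listed genes for the breakdown of other amino acids 3 were measured and 1 rose, AT5G38710. This locus has no name in the annotation and is listed as PRODH2, a proline dehydrogenase. It had 6.31, 6.57 and 6.77 in msh1 albino replicates 1 to 3, against 5.15, 5.05 and 4.82 in wild-type replicates 1 to 3. The groups were far apart, and the difference was 1.54 ± 0.14 (2.90-fold, limma adjusted p = 0.00198). Its adjusted p stayed at or below 0.0153 under all alternatives in which it was tested. It was the only call among 29 measured genes on the 10 lists of related genes, where 11.2% of all probe sets were called and 3.75% as higher. Those 29 had a median difference of 0.06, with 15 above and 14 below 0.

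None of the 11 listed sugar shortage and dark-induced genes, such as SEN1, DIN2 and ASN1, had a probe set of its own in the annotation used. The same held for all 9 genes of biotin synthesis and biotin-dependent carboxylases. These lists were not analysed here. From the list of the SnRK1 kinase and the bZIP factors that act with it under low energy, 1 of 7 genes was measured, BZIP53. This bZIP transcription factor had 9.79, 10.24 and 9.999 in msh1 albino replicates 1 to 3, against 9.64, 9.53 and 9.65 in wild-type replicates 1 to 3. All albino arrays were higher, as in 10.1% of all probe sets. The difference of 0.40 ± 0.13 did not pass (limma adjusted p = 0.0880). It passed under the 4 scalings that also brought MCCA and IVD past the threshold (limma adjusted p = 0.0185 to 0.0359). Among all probe sets, calls as higher numbered 854 as deposited and 1186 to 1970 under those scalings.

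Autophagy recycles protein under starvation, and 9 of 14 listed genes were measured, all of them for the ATG8 proteins of the autophagosome membrane. None passed, 3 did at an unadjusted p under 0.05 by limma (all lower, as were 17.0% of all probe sets at that p), and 7 of the 9 differences were below 0, with a median of -0.23. The median of all probe sets was -0.04. With alignment on reference genes 3 of the 9 were below 0 and their median was 0.01, beside 0.20 for all probe sets. ATG8C differed by -0.57 ± 0.16 and ATG8F by -0.53 ± 0.14 (limma adjusted p = 0.0658 and 0.0521). Both were among 3 of the 9 genes with all albino arrays below all wild-type arrays, as in 19.8% of all probe sets. ATG8C passed under 3 alternatives and ATG8F under 6, among them without msh1 albino replicate 2 (adjusted p = 0.0212 and 0.0241). Leucine synthesis was represented by 2 of 10 genes, AT3G23940 at 0.25 ± 0.15 and AT3G58610 at -0.08 ± 0.11 (limma adjusted p = 0.385 and 0.736). AIM1, a multifunctional protein of peroxisomal beta-oxidation, was the measured gene of 9 on its list and differed by 0.09 ± 0.10 (limma adjusted p = 0.669).

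The single-gene probe sets with profiles nearest to MCCA were sought by the Euclidean distance of the 6 values after centring. Among 13512 candidates the nearest 5 were AT4G17250, SECA2, IVD, AT5G61890 and AT5G39030, and IVD stood at rank 3 with a distance of 0.255. SECA2 codes for a plastid protein translocase subunit. Nearest to IVD were HL, Phox4, AT4G39690, AT5G65440 and AT5G24710, with distances of 0.0845 to 0.156, and MCCA stood at rank 43. None of these passed, and their differences ran from 0.33 for AT4G39690 to 0.60 for AT5G39030. The distance takes in the group difference, so differences near those of MCCA and IVD follow from how these genes were picked. Genes next to MCCA and IVD on the chromosomes had overlapping groups. NET1D and AT1G03100 beside MCCA differed by 0.13 ± 0.28 and -0.07 ± 0.10, and AT3G45310 beside IVD by -0.19 ± 0.14 (limma adjusted p = 0.831, 0.735 and 0.462).

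Over all probe sets Pearson's r was 0.989 to 0.995 within groups and 0.969 to 0.985 between them. Of the markers of aerial tissue 3 of 8 were measured. RCA, RuBisCO activase, averaged 12.77 ± 0.21 in msh1 albino and 13.26 ± 0.07 in wild type and fell by 0.48 (limma adjusted p = 0.0435). STOMAGEN, a mesophyll signal for stomata, averaged 7.23 ± 0.23 in msh1 albino and 8.08 ± 0.17 in wild type and fell by 0.85 (limma adjusted p = 0.0114). FMA, a guard cell factor, differed by 0.00 ± 0.13. Of the root markers 2 of 9 were measured, EXPA7 with means of 4.18 in msh1 albino and 4.19 in wild type, and EXPA18 with 4.13 in msh1 albino and 3.95 in wild type. The part of tissue makeup in the values of MCCA and IVD was not tested, and in these bulk samples fewer cells of a type and less RNA per cell cannot be told apart.

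The adjusted p of both genes crossed the threshold with the scaling of the arrays. With the arrays aligned on their 75th percentile the difference was 0.64 ± 0.15 for MCCA (limma adjusted p = 0.0275) and 0.51 ± 0.13 for IVD (0.0365). After cyclic loess it was 0.71 ± 0.15 (0.0289) and 0.57 ± 0.12 (0.0299), and after a second quantile normalization 0.69 ± 0.15 (0.0271) and 0.55 ± 0.13 (0.0337). Alignment on 5 reference genes gave 0.80 ± 0.20 (0.00649) and 0.67 ± 0.19 (0.0212), but 4 of those genes themselves had differences below 0. That alignment moved the median of all probe sets to 0.20, and relative to it MCCA stood at 0.59 and IVD at 0.46, as they did with the deposited values. Alignment on the spiked hybridization controls left the differences at 0.53 ± 0.27 and 0.40 ± 0.27 with wider errors (limma adjusted p = 0.420 and 0.746). The SE in that setting was the same 0.27 for all list genes named here, so it is not the spread of MCCA or IVD themselves. The differences of MCCA and IVD were above 0 under all 18 alternatives run. Only the 5 scalings could have turned that sign. The other alternatives kept the deposited values, in which every albino array lay above every wild-type array.

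**Figure D4:**
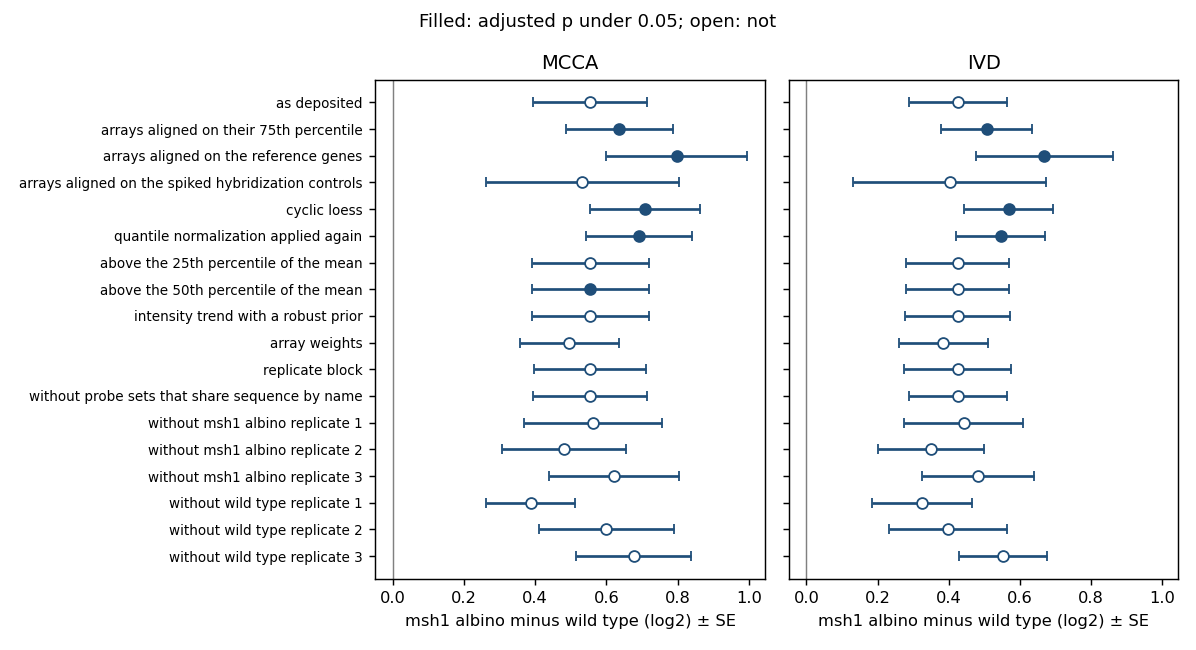
Difference of MCCA and IVD, msh1 albino minus wild type (log2 ± SE), as deposited and under each alternative, with filled points where the limma adjusted p was under 0.05. All points lie above 0, and the filled ones are 4 rescalings for both genes and, for MCCA, the filter at the 50th percentile of the mean.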

How the data were processed

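Affymetrix arrays measured total RNA of the aerial part of msh1 albino plants (3 arrays) and wild-type plants (3 arrays), 1 array per labelled biological replicate. Deposited was 1 log2 value per probe set and array, made by the authors with RMA in the affy package, per the submitters' processing notes. Their versions, settings and build: not given in the sources used here. All values were used as deposited. Gene names came from the platform's annotation, updated through gene numbers in the TAIR10.1 table. It assigned 1 gene to 13513 probe sets and more than 1 to 503, and left 8730 unnamed here.

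All 22746 probe sets other than 64 array controls were fitted with lmFit and eBayes of limma 3.58.1 in R 4.3.3, as msh1 albino minus wild type, two-sided, with Benjamini-Hochberg adjustment and a threshold of 0.05. The fit was tested on simulated data, with planted differences larger than those of MCCA and IVD. The number of arrays limits the precision (median SE 0.118). Background was not measured. Single values per array were compared by exact permutation. Where a gene had several probe sets, that with the highest mean counted. Named were MCCA, IVD, all measured genes of the 3 branched-chain lists, up to 4 called or the 2 most different genes of other lists, and the 5 nearest profiles of each member. Chromosomal neighbours, markers and reference genes stand outside that rule. The members and lists were chosen with earlier results of these data known. Alternatives were 5 scalings, a minimum mean at the 25th or 50th percentile, a trended robust prior, array weights, a replicate block, leaving out probe sets whose names mark shared sequence, an adjusted p of 0.01 and leaving out each array.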

Additional observations from a re-analysis of the deposited data

How the results depend on the processing

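MCCA and IVD passed the threshold with arrays aligned on the 75th percentile (0.64 and 0.51) or on reference genes (0.80 and 0.67), after cyclic loess (0.71 and 0.57) and after quantile normalization (0.69 and 0.55). The filter at the 50th percentile of the mean took MCCA past it (0.55, limma adjusted p = 0.0473), where fewer probe sets were tested. With 1 array left out, the difference ran from 0.39 to 0.68 for MCCA (adjusted p 0.0634 to 0.146) and from 0.32 to 0.55 for IVD (0.0559 to 0.248), and neither passed. MCCA minus IVD ran from 0.06 to 0.20. Over all alternatives the adjusted p ran from 0.00649 to 0.420 for MCCA and from 0.0212 to 0.746 for IVD. Replicate numbers were shared by the groups, but same-numbered arrays did not deviate together (r = 0.01, -0.34 and -0.02) and 0 of 6 arrays correlated best with their own number, so they were not taken as pairs. With the replicate block MCCA had 0.55 (adjusted p = 0.0987), IVD 0.43 (0.162) and MCCA minus IVD 0.13 (exact permutation p = 0.5), and it called 1485 probe sets.

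As deposited, 2547 probe sets were called, 66.5% of them lower. Calls numbered 1153 on spiked controls and 689 at an adjusted p of 0.01. They ran from 851 (without wild-type replicate 2) to 2109 with 1 array left out, with 1255 without wild-type replicate 3. The share of lower calls was 45.7% on the 75th percentile, 19.5% on reference genes, 49.6% on spiked controls, 45.4% after cyclic loess and 52.2% after quantile normalization. Of the 29 list genes 1 was called as deposited. This became 4 on the 75th percentile, 6 on reference genes, 5 after cyclic loess or quantile normalization, 2 and 4 above the 25th and 50th percentile, 4 with array weights, and 1 to 4 with an array left out, 4 if msh1 albino replicate 2 and 2 if msh1 albino replicate 3 was the array left out. AT5G38710 was below the 50th percentile and so not tested there. Among all probe sets, calls as higher rose as well, from 854 as deposited to 1301 on the 75th percentile and 1970 on reference genes. They numbered 1260 after cyclic loess and 1186 after quantile normalization. Calls in either direction numbered 2586 and 2157 above the 25th and 50th percentile and 3224 with array weights.

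Signs turned for uncalled genes. On reference genes these included AT2G26800 (0.027), AT4G16800 (0.091), D2HGDH (0.036), AT4G20930 (0.0025) and AT3G58610 (0.16), and 6 of 9 autophagy genes were above 0, against 2 as deposited. AT3G58610 also turned on the 75th percentile (0.0026), after cyclic loess (0.10) or quantile normalization (0.15) and, with 1 array left out, ran from -0.16 to 0.0014 (without msh1 albino replicate 3). Likewise MCCB ran from -0.024 (without msh1 albino replicate 2) to 0.18, and ALDH6B2 from -0.062 (without wild-type replicate 1) to 0.23. Alignment moved all genes alike. Causes of other turns were not tested.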
